A study of Saccharomyces cerevisiae with 164 samples.

Results

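The 30 genes of sulfur assimilation and methionine metabolism followed here were measured in budding yeast strains that carry mutant histone H3 on 1 or on both H3 copies of the nucleosome. They were chosen by systematic name from their roles, with earlier results of these data known, and are 30 of the 6692 features of the full-length RNA-seq files. The 3′-end RNA-seq files have 5013 features and hold 29 of the 30, all but the sulfate permease gene SUL1. By role, 10 genes serve the uptake, activation and reduction of sulfate: SUL1 (YBR294W), SUL2 (YLR092W), MET3 (YJR010W), MET14 (YKL001C), MET16 (YPR167C), MET22 (YOL064C), MET5 (YJR137C), MET10 (YFR030W), MET1 (YKR069W) and MET8 (YBR213W). Another 6 serve the synthesis of methionine, namely MET2 (YNL277W), MET17 (YLR303W), MET6 (YER091C), MET13 (YGL125W), MET12 (YPL023C) and MET7 (YOR241W). The 4 transsulfuration genes are CYS3 (YAL012W), CYS4 (YGR155W), STR2 (YJR130C) and STR3 (YGL184C), and the 3 genes of the S-adenosylmethionine cycle are SAM1 (YLR180W), SAM2 (YDR502C) and SAH1 (YER043C). MUP1 (YGR055W) encodes a methionine permease, and the 6 regulator genes are MET4 (YNL103W), MET28 (YIR017C), MET31 (YPL038W), MET32 (YDR253C), CBF1 (YJR060W) and MET30 (YIL046W).

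Budding yeast takes up sulfate, activates it with ATP, reduces it to sulfide and joins the sulfide to O-acetylhomoserine, and the homocysteine so formed is methylated to methionine or passed to cysteine and back by transsulfuration. The activator Met4, which binds no DNA by itself, is brought to these genes by Cbf1 with Met28 and by Met31 or Met32, and the ubiquitin ligase subunit Met30 holds Met4 in check when sulfur amino acids are plentiful. The cultures here were grown in YEPD, a rich medium that supplies methionine.

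All strains were MATa with both chromosomal H3-H4 loci deleted, delta(hht-hhf1) and delta(hht2-hhf2), and carried leu2-3,112, ura3-62, trp1 and his3+. Each had 2 centromeric plasmids, a TRP1 plasmid with H3X (hht2 with L127A and L131V) and a LEU2 plasmid with H3Y (hht2 with L110I, A111W and L131I), whose altered interfaces are designed so that X pairs with Y in each nucleosome. A symmetric strain had the tested mutation on both plasmids, an asymmetric strain on H3X alone or on H3Y alone, and the pseudo-wild-type strain, which served as control, on neither. The plasmid text for symmetric K18Q names K18R in the plasmid titles and K18Q in the alleles. Cells were harvested at mid-log phase. The 3′-end data covered symmetric, H3X and H3Y strains of K14R, K18R and K56R (sequencing batch 11) and of R2K, K36Q and K37Q (batch 10), with 3 libraries per strain and 6 pseudo-wild-type libraries per batch, 66 in all. The 98 full-length libraries of batches 1 to 9 covered 21 mutants, 13 of them also in symmetric form, with 5 pseudo-wild-type libraries. These controls were of batches 2, 3, 4 and 8 alone. Libraries of batches 1, 5, 6 and 7 thus have no control of their own batch. Their comparisons rest on the batch term, through strains sequenced in more than 1 batch. Nothing in the labels says that replicates came from separate cultures, so p-values measure the spread between these libraries, which may be technical.

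Assigned counts per library ran from 750551 to 5156160 in the 3′-end data and from 542727 to 21573351 in the full-length data, with medians of 3222807.5 and 5094397. Levels are given as CPM, the count per library total after TMM scaling of that total, and a gene was called where edgeR's quasi-likelihood test gave a Benjamini-Hochberg adjusted p under 0.05 over all genes of the fit. The MATa label was checked with 4 a-cell genes (MFA1, MFA2, STE2 and BAR1), which summed to 471 to 1038 CPM per 3′-end library and 601 to 1821 CPM per full-length library, while the alpha-cell genes MF(ALPHA)1, MF(ALPHA)2 and STE3 summed to 23.2 to 65.0 and 10.0 to 43.9 CPM. Most of that sum was STE3 (21.4 to 63.4 CPM in 3′-end libraries). These marker values are CPM before TMM scaling. Pseudo-wild-type full-length replicates 1, 2 and 3 differed by little more than sampling noise (a chi-square of their counts gave 1.14 to 2.80 per degree of freedom, while other pairs of 1 strain gave at least 9.42) and count as 1 sample in every mean and SD, which leaves n = 3. The full-length edgeR fit, in contrast, held these 3 libraries as separate samples, so its SE and p-values count each of them. With 1 of the 3 kept, 1 of the 11 full-length calls for single genes held. The 2 symmetric K56R 3′-end libraries of replicates 3 and 4 also lay close (1.59, while other 3′-end pairs gave at least 2.42).

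The known binding site of Cbf1 is CACGTG, and Met31 and Met32 bind CTGTGG. Within 300 bases upstream of the coding start (R64 reference), CACGTG, which reads the same on both strands, stood before 12 of the 30 genes (40.0%) and before 214 of all 6001 protein-coding genes (3.57%). CTGTGG on either strand stood before 12 of the 30 (40.0%) and 411 of the 6001 (6.85%), and both motifs before 4 (13.3%) and 21 (0.35%). A match describes the letters and is not evidence of binding. Of the genes named often below, SUL1, STR3, MET2, MET31 and MET6 had neither motif in the window. The 6 windows of 30 bases printed here come from some of the genes with CACGTG that were called in 3′-end comparisons. Each is in the direction of its gene with CACGTG in capitals. They lie at chrXI:439596-439625 (minus strand) for MET14, chrXVI:877793-877822 (minus) for MET16, chrXV:207294-207323 (minus) for MET22, chrXII:732230-732259 (plus) for MET17, chrI:130571-130600 (plus) for CYS3 and chrV:237343-237372 (minus) for SAH1, and CACGTG begins 228, 178, 135, 300, 216 and 241 bases before the coding start, in that order of genes.
MET14: tgccactaatttCACGTGatcaatatattt
MET16: ttatcatcatttCACGTGgctagtaaaaga
MET22: gacgagcaatatCACGTGttgcgattttac
MET17: aatggcaaatggCACGTGaagctgtcgata
CYS3: taattagccattCACGTGatctcagccagt
SAH1: gatatttctgtgCACGTGatctcgttggct

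In pseudo-wild-type cells the genes spanned a 497-fold range of level per length in full-length libraries, with a median of 59.2 CPM per kb over the 30 genes beside 46.3 CPM per kb over all 6376 tested genes. The top of the order was held by SAH1, which encodes S-adenosylhomocysteine hydrolase (805 ± 192 CPM per kb), and CYS3, which encodes the cystathionine gamma-lyase that makes cysteine (666 ± 286; SD, n = 3 for both). Below them came CYS4, the cystathionine beta-synthase gene (382 ± 6.37 CPM per kb), the S-adenosylmethionine synthetase genes SAM1 (371 ± 100) and SAM2 (284 ± 35.0), MET17, which encodes the sulfhydrylase that fixes sulfide into homocysteine (257 ± 40.8), and MET6, the methionine synthase gene (244 ± 53.5). The sulfate permease genes were at the bottom, with SUL2 at 11.8 ± 0.641 and SUL1 at 1.62 ± 0.754 CPM per kb (SD, n = 3). The order is loose between neighbours: 24 of the 29 neighbouring pairs overlapped in the range of the 5 libraries, and the pairs without overlap were CYS3 and CYS4, MET6 and MUP1, MUP1 and MET14, MET12 and MET3, and SUL2 and SUL1. SAM1 and SAM2 share 82.8% of their coding sequence, and how reads that fit both were shared out is uncertain.

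**Figure D1:**
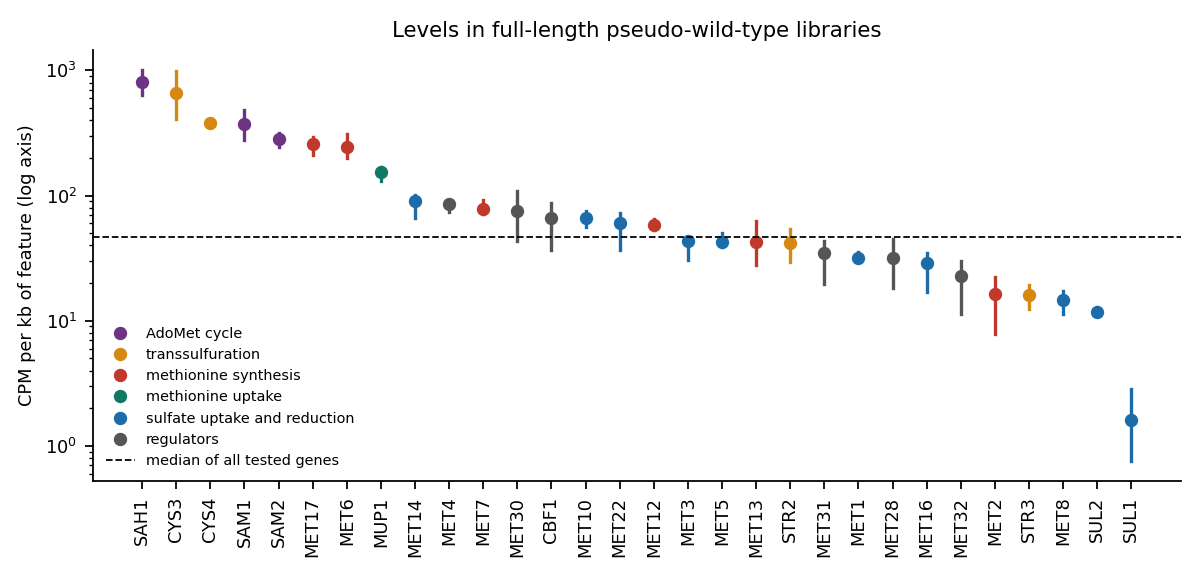
Level per length of the 30 genes in pseudo-wild-type full-length libraries, in CPM per kb on a log axis, ordered from high to low, with points at the mean (near-identical libraries counted as 1) and bars from the lowest to the highest of 5 libraries. SAH1 and CYS3 stand at the top and SUL1 lies far below SUL2 at the bottom; the dashed line is the median of all tested genes, 46.3 CPM per kb.

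MET17, also called MET15, a locus often deleted in laboratory strains, was present in every library. It had 66 to 1587 counts (87.9 to 433 CPM before TMM scaling, median 234) in the 66 3′-end libraries and 202 to 13481 counts (201 to 670 CPM before TMM scaling, median 330) in the 98 full-length libraries. In the 3′-end controls, the widest relative ranges were those of the following genes: in batch 10 STR2 (1.58 to 5.13 CPM), MET8 (2.66 to 7.01), SAM1 (131 to 270) and MET1 (27.4 to 54.8), and in batch 11 MET32 (5.63 to 18.5), MET8 (5.01 to 12.9), MET22 (19.1 to 42.0) and MET5 (6.24 to 11.8). Across the 30 comparisons of 3′-end data, 6 of the 29 genes were never called, namely CBF1, MET1, MET5, MET7, MET8 and STR2. The 6 pseudo-wild-type libraries of a batch are shared by all comparisons with that control, so those comparisons are not independent of each other.

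In symmetric K56R of batch 11, MET17, STR3, MET6, the sulfate gene MET3 and the regulator gene MET30 rose, though the calls of MET6 and MET30 held in few alternatives. At the same time CYS3, SAM1, SAH1 and MET12 fell, so that 9 of 29 genes were called beside 23.9% of all 4961 tested genes (13.4% higher and 10.5% lower). This share is near that of all genes and is no result about the pathway, whose median log2 fold change was 0.09 beside 0.05 over all genes.

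MET17 (chromosome XII, 732542 to 733876, plus strand) had 358, 352 and 381 CPM in symmetric K56R libraries, against a lowest, median and highest value of 202, 240 and 272 CPM in the 6 pseudo-wild-type libraries. Every symmetric K56R library was above every control library. The means were 364 ± 15.5 (SD, n = 3) and 238 ± 25.1 CPM (SD, n = 6), a log2 fold change of 0.61 (SE 0.117, edgeR adjusted p = 0.000662), while the 20 nearest tested genes on the chromosome had a median log2 fold change of 0.07. STR3, which encodes the cystathionine beta-lyase that returns sulfur from cysteine to homocysteine (chromosome VII, 154615 to 156012, minus strand), had 27.4, 26.1 and 22.2 CPM in symmetric K56R, against 12.5, 16.8 and 19.1 CPM (lowest, median, highest) in the controls. All 3 libraries were again above the control range, with a log2 fold change of 0.63 (edgeR adjusted p = 0.0119). MET3, the ATP sulfurylase gene that activates sulfate, had 49.1, 49.4 and 63.9 CPM in symmetric K56R, against 32.6, 38.6 and 47.7 CPM in the controls, with no overlap and a log2 fold change of 0.47 (edgeR adjusted p = 0.0336).

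The remaining called genes of symmetric K56R moved less or lay lower. MET6 (chromosome V, 339864 to 342167, minus strand) had 232, 234 and 237 CPM in symmetric K56R, against 178, 183 and 242 CPM (lowest, median, highest) in the controls, and MET30 had 95.9, 80.3 and 96.4 CPM, against 65.5, 73.2 and 81.8 CPM. Both overlapped with the controls, and their log2 fold changes were 0.28 (edgeR adjusted p = 0.0369) and 0.31 (0.0464). On the lower side, CYS3 (chromosome I, 130799 to 131983, plus strand) had 504, 522 and 502 CPM in symmetric K56R, against 589, 748 and 787 CPM in the controls. SAM1 had 237, 236 and 248 CPM, against 294, 328 and 373 CPM. SAH1 (chromosome V, 235770 to 237119, minus strand) had 1512, 1495 and 1493 CPM, against 1706, 1901 and 2073 CPM. None of these 3 overlapped with the controls, and their log2 fold changes were -0.51, -0.46 and -0.34 (edgeR adjusted p = 0.00345, 0.00355 and 0.00561). MET12, one of the methylenetetrahydrofolate reductase genes, was lower by a smaller log2 fold change of -0.23 (adjusted p = 0.0475). Under 14 alternatives the MET17 and SAH1 calls held in all, CYS3 and SAM1 in 13, STR3 in 12, MET3 in 8, MET12 in 5, MET6 in 2 and MET30 in 1, and without symmetric K56R replicate 3, 4 or 5 the number called was 4, 4 and 5 of the 29. One alternative took the length slope of the libraries, a property described further on, as a covariate. There the calls of CYS3, SAM1, MET12, MET6 and MET30 were lost, and those of MET17, SAH1, STR3 and MET3 were kept.

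Asymmetric K56R, taken as the mean of its H3X and H3Y strains against the same controls, gave 5 calls beside 22.9% of all genes (12.7% higher and 10.2% lower). STR3 rose (log2 fold change 0.54, edgeR adjusted p = 0.0112), and CYS3 (-0.50, adjusted p = 0.000761), SAM1 (-0.35, 0.00615), MUP1, the high-affinity methionine permease gene (-0.21, 0.0384), and SAH1 (-0.20, 0.0395) fell. STR3, CYS3 and SAM1 held in all 16 alternatives and MUP1 and SAH1 in 8, and without H3Y replicate 3 or control replicate 14 or 17 the number called was 3. The calls of MUP1 and SAH1 were also lost with the length slope as a covariate. MET17 was not called there, with 236, 374 and 270 CPM in the H3X strain and 300, 281 and 257 CPM in the H3Y strain. These values lie on both sides of the top of the control range. Set directly against the asymmetric strains, symmetric K56R differed in 2.18% of all genes (1.19% higher) and, of the 29, in MET6, which had 232, 234 and 237 CPM in symmetric libraries, against 147 to 202 CPM over the 6 asymmetric libraries, a log2 fold change of 0.37 (edgeR adjusted p = 0.0365). This call was lost when the 2 close symmetric libraries were summed as 1 sample and without any 1 of the symmetric libraries, H3X replicate 3 or 4 or H3Y replicate 3 or 4. The H3X and H3Y strains of K56R differed in 2.88% of all genes (0.706% lower in H3X) and in none of the 29, of which 2 had an unadjusted p under 0.05 and DESeq2 called none.

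**Figure D2:**
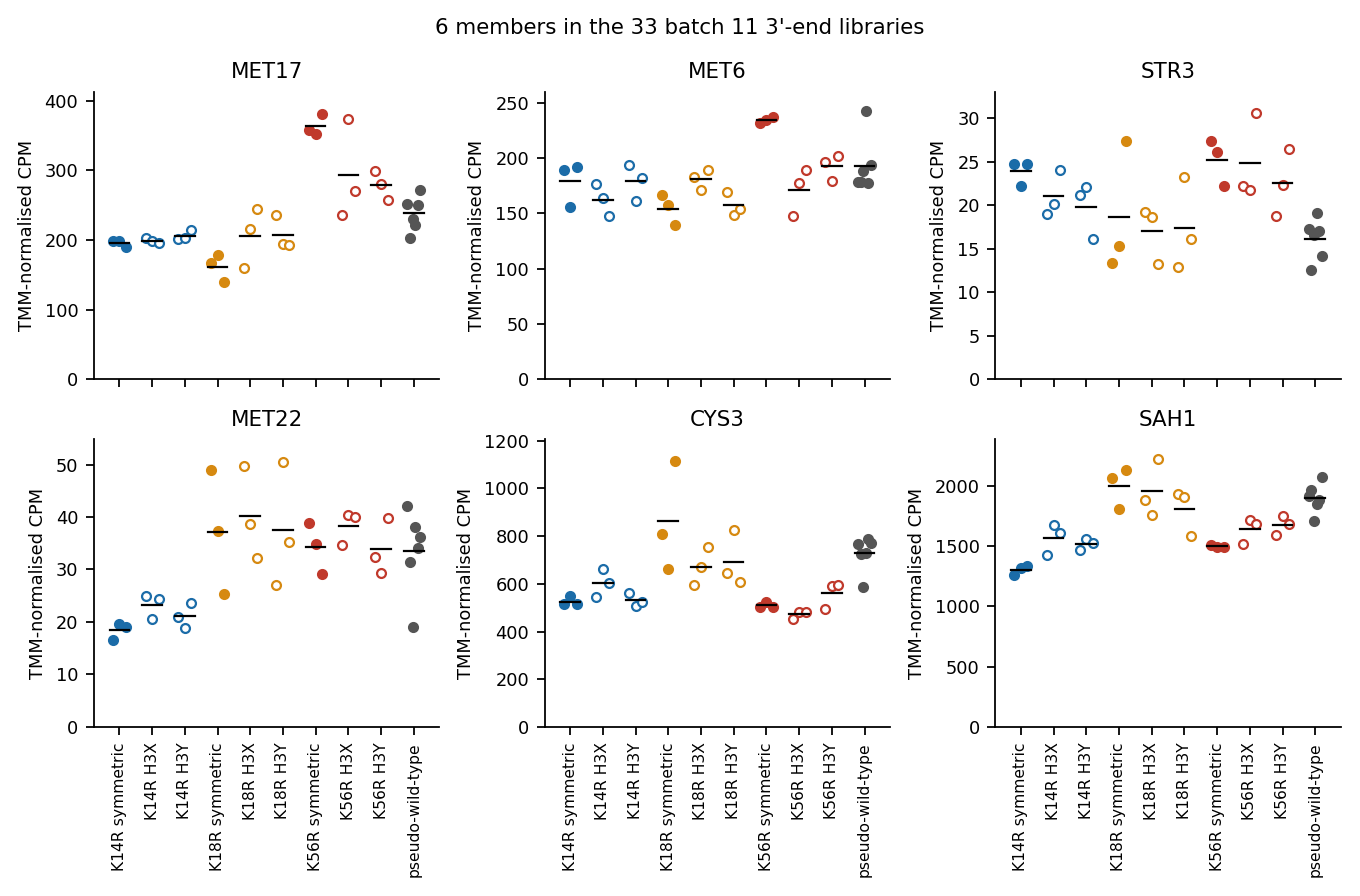
3′-end levels in CPM of MET17, MET6, STR3, MET22, CYS3 and SAH1 in batch 11, 1 point per library, for symmetric strains (filled) and H3X and H3Y strains (open) of K14R, K18R and K56R beside the pseudo-wild-type libraries, with a line at each mean. MET17 is high in symmetric K56R (352 to 381 CPM) and lowest in symmetric K18R (139 to 179 CPM), and SAH1 is lowest in symmetric K14R (1259 to 1337 CPM).

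In symmetric K14R, 7 of the 29 genes fell and 1 rose, beside 36.2% of all genes called (20.4% higher and 15.8% lower). The genes MET22, MET16, SUL2 and MET14 of sulfate use fell, 4 of the 9 measured, and SAH1, CYS3 and SAM2 fell as well, while STR3 rose. Both directions together, the share called is not above that of all genes and is no result about the pathway. With the length slope of the libraries, a property described further on, as a covariate, only SAH1 and STR3 among these genes kept their calls. The log2 fold change was below 0 for 23 of the 29 genes, with a median of -0.17 beside 0.01 over all genes. None of the 6 methionine synthesis genes and none of the 6 regulators was called.

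SAH1 had 1259, 1319 and 1337 CPM in symmetric K14R, against 1706, 1901 and 2073 CPM (lowest, median, highest) in the 6 pseudo-wild-type libraries. All 3 libraries were well under the control range, and the log2 fold change was -0.54 (SE 0.086, edgeR adjusted p = 0.000132). MET22, which encodes the phosphatase that clears the by-product 3′-phosphoadenosine 5′-phosphate (chromosome XV, 206103 to 207176, minus strand), had 16.5, 19.6 and 18.9 CPM in symmetric K14R, against 19.1, 35.2 and 42.0 CPM in the controls. It gave the lowest log2 fold change, -0.85 (SE 0.21, adjusted p = 0.00316), with an overlap through the lowest control library. MET16, the gene of the reductase that turns activated sulfate into sulfite, had 22.8, 25.4 and 25.5 CPM, against 30.2, 34.4 and 43.8 CPM, and CYS3 had 514, 549 and 514 CPM, against 589, 748 and 787 CPM. Neither overlapped with the controls, and the log2 fold changes were -0.52 (edgeR adjusted p = 0.0342) and -0.47 (0.00387). The sulfate permease gene SUL2 (-0.46, adjusted p = 0.0300), the adenylylsulfate kinase gene MET14 (-0.38, 0.0408) and SAM2 (-0.35, 0.0160) fell by less. STR3 had 24.8, 22.2 and 24.8 CPM, against 12.5, 16.8 and 19.1 CPM, without overlap and with a log2 fold change of 0.56 (adjusted p = 0.0150). Of 13 alternatives, SAH1 held in all, MET22 and CYS3 in 12, STR3 in 11, SAM2 in 10, SUL2 in 9 and MET16 and MET14 in 6, and without symmetric replicate 4 or 5 or control replicate 18 the number called was 5, 3 and 5.

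Asymmetric K14R gave 5 genes that fell and none that rose, beside 29% of all genes called (17.4% higher and 11.6% lower). They were MET22 (log2 fold change -0.58, edgeR adjusted p = 0.0123), SUL2 (-0.54, 0.00586), CYS3 (-0.36, 0.00757), SAH1 (-0.30, 0.00328) and SAM2 (-0.25, 0.0370), and all 5 were also called in the symmetric strain against the same controls. The share called is below that of all genes and is no result about the pathway. None of the 5 calls was kept with the length slope as a covariate. SUL2 (chromosome XII, 323544 to 326225, plus strand) had 16.2, 20.1 and 22.5 CPM in the H3X strain, 21.5, 17.4 and 18.7 CPM in the H3Y strain and 22.8, 21.9 and 16.4 CPM in the symmetric strain, against 23.6, 28.1 and 33.2 CPM (lowest, median, highest) in the controls. All 9 K14R libraries were below every control library. Symmetric and asymmetric K14R differed in 0.0403% of all genes and in none of the 29, of which 1 had an unadjusted p under 0.05, and the H3X and H3Y strains differed in 0.464% of all genes and in none of the 29, of which 2 did. DESeq2 called none in either comparison.

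In symmetric K18R, MET17 had 167, 179 and 139 CPM, against 202, 240 and 272 CPM (lowest, median, highest) in the pseudo-wild-type libraries. All 3 were below every control library, and MET17 fell by 0.53 on the log2 scale (SE 0.128, edgeR adjusted p = 0.0276), in a comparison with 1.81% of all genes called (1.25% higher and 0.564% lower). MET31, a zinc-finger regulator gene, had 166, 125 and 553 CPM, against 98.4, 129 and 153 CPM, with a log2 fold change of 0.99 (adjusted p = 0.0421) that the third library carried. That library, replicate 5, was also far above the other 2 for MET2 (238 CPM), MET13 (336), CYS3 (1116) and MET14 (192), and without it none of the 29 genes was called, MET17 included. Replicate 5 had the fewest assigned counts of all 3′-end libraries (750551, with 66 for MET17). Its length slope, -0.414, was the lowest of batch 11. None was called without control replicate 18 or 19 either, 1 without control replicate 14, 15 or 16, and 8 without symmetric replicate 4. In asymmetric K18R none of all genes passed, with 465 of all genes and 3 of the 29 at an unadjusted p under 0.05 and none of the 29 called by DESeq2. MET17 had 160, 215 and 244 CPM in the H3X strain and 235, 194 and 193 CPM in the H3Y strain. Symmetric against asymmetric K18R gave no called gene either (7 of the 29 at an unadjusted p under 0.05, and 4 called by DESeq2).

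The symmetric mutants of batch 11 were also compared with each other, without the controls. MET17 was lower in symmetric K18R than in symmetric K56R by a log2 difference of -1.14 (edgeR adjusted p = 4.37e-06) and lower in symmetric K14R than in symmetric K56R by -0.89 (adjusted p = 0.000103), and both calls held under all 13 alternatives run for each. The K56R libraries overlapped with neither of the other sets: 167, 179 and 139 CPM in K18R and 199, 199 and 189 CPM in K14R, against 358, 352 and 381 CPM in K56R. MET6 was lower in K18R than in K56R by -0.58 (13 of 13 alternatives) and in K14R than in K56R by -0.39 (6 of 13). K14R against K56R called 6 of the 29 genes, all lower, beside 7.98% of all genes (5.56% lower), among them MET22 (-0.90), MET16 (-0.76), SUL2 (-0.61) and MET10, a sulfite reductase subunit gene (-0.41). Without any 1 of the 6 libraries, 1 to 3 of the 29 were called, MET17 among them.

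K18R against K56R called 12 of the 29, with 5 higher and 7 lower beside 26.4% of all genes (15.4% higher and 11% lower). Higher in K18R were MET31 (1.14), CYS3 (0.74), SAM1 (0.74), SAH1 (0.42) and MET12 (0.29), and lower were, beside MET17 and MET6, STR3 (-0.66), MET3 (-0.59), MET4 (-0.57), MET30 (-0.51) and MET10 (-0.32). Taking the length slope as a covariate removed the calls of MET31, CYS3, SAH1, MET12, MET4 and MET30. Of the genes higher in K18R, SAM1 alone kept its call there. K14R against K18R called 11 of the 29, with 2 higher and 9 lower beside 34.2% of all genes (16.3% higher and 17.8% lower). In total this share is near that of all genes and is no result about the pathway. In K14R against K18R only SAH1 and STR3 kept their calls with the length slope as a covariate. STR3 (0.58) and the activator gene MET4 (0.62) were higher in K14R, and MET31 (-1.23), MET22 (-1.12), MET13 (-1.01) and MET2 (-0.90) were the lowest. Replicate 5 of symmetric K18R takes part in both comparisons. Without it K14R against K18R called 7, and the calls of MET31 (-0.42), MET13 (-0.22), MET2 (-0.04) and MET14 (-0.31) were lost. K18R against K56R then called 9, and the calls of MET31 (0.34), MET12, MET4 and MET10 were lost.

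**Figure D3:**
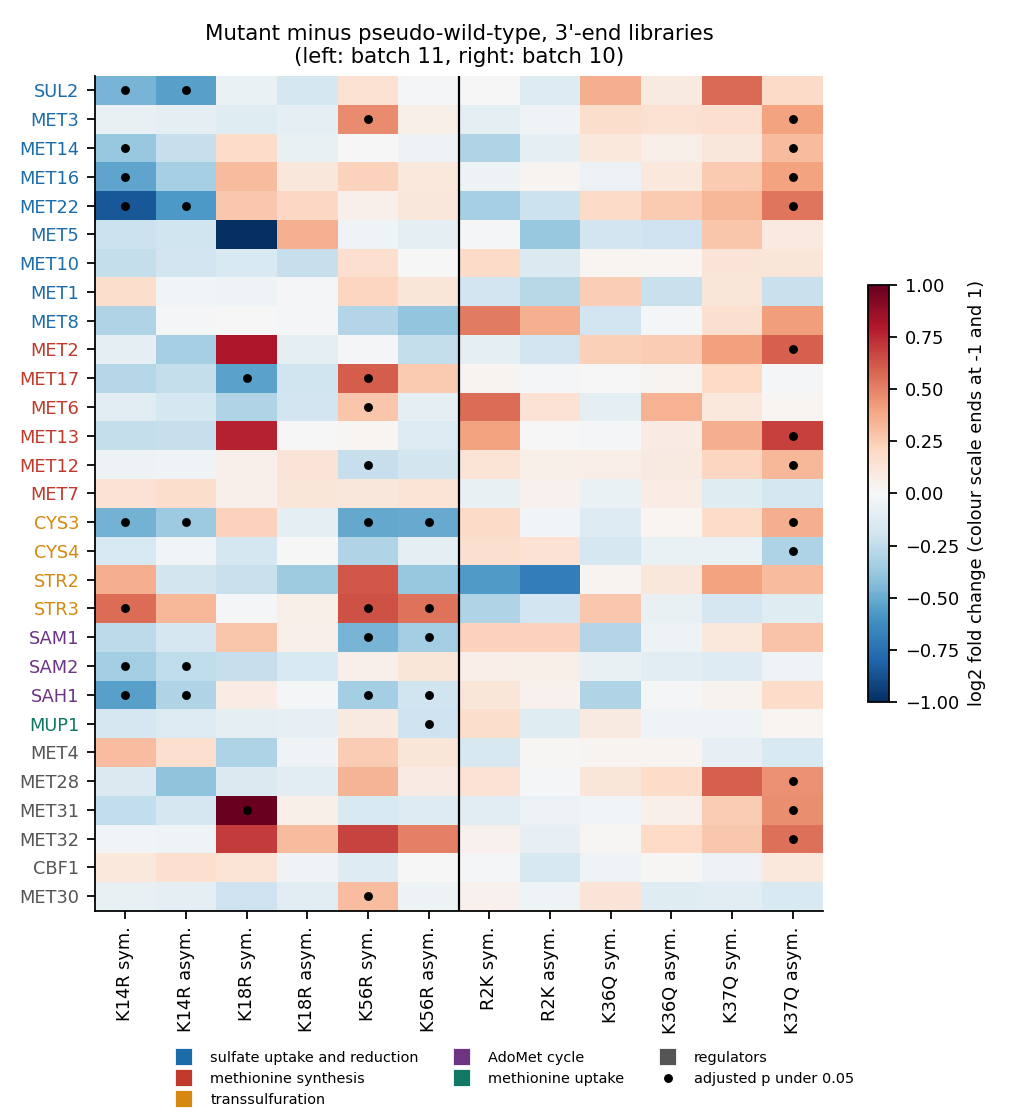
Log2 fold change against the pseudo-wild-type libraries of the batch for the 29 genes in 3′-end data, in the symmetric and asymmetric form of 6 mutants, with a dot where the edgeR adjusted p is under 0.05 and the colour scale ended at 1 in both directions. Gene names are coloured by role; K14R and K56R carry dots in both forms, K18R in the symmetric form, K37Q in the asymmetric form, and R2K and K36Q carry none.

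In batch 10, asymmetric K37Q was the only strain form with a called gene among the 29 against the controls. Of the 29 genes 11 rose and 1 fell, beside 41.5% of all genes called (19.9% higher and 21.6% lower), with a median log2 fold change of 0.19 beside -0.01 over all genes. The share called is near that of all genes and is no result about the pathway, and none of the 12 calls was kept with the length slope of the libraries, a property described further on, as a covariate. The genes that rose were 4 of the 9 sulfate genes (MET22, MET16, MET3 and MET14), 3 of the 6 methionine synthesis genes (MET13, MET2 and MET12), CYS3 of the transsulfuration genes, and 3 of the 6 regulators (MET32, MET31 and MET28), while CYS4 fell (-0.31). MET13, the main methylenetetrahydrofolate reductase gene (chromosome VII, 272520 to 274322, plus strand), had 173, 98.8 and 127 CPM in the H3X strain and 130, 111 and 137 CPM in the H3Y strain, against 69.4, 79.9 and 88.1 CPM (lowest, median, highest) in the controls. All 6 mutant libraries were above every control library, with a log2 fold change of 0.68 (SE 0.115, edgeR adjusted p = 6.97e-05). MET2, the homoserine O-acetyltransferase gene (chromosome XIV, 117349 to 118809, plus strand), had 114, 65.5 and 71.9 CPM in H3X and 85.8, 65.9 and 71.0 CPM in H3Y, against 39.9, 50.6 and 63.0 CPM. It did not overlap with the controls either, and its log2 fold change was 0.60 (adjusted p = 0.000552).

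Symmetric K37Q had no called gene among the 29 (4 at an unadjusted p under 0.05) beside 0.1% of all genes, and symmetric against asymmetric K37Q had none of all genes (3 of the 29 at an unadjusted p under 0.05), and DESeq2 called none of the 29 in either. K36Q and R2K against the controls had no called gene at all in either form. At an unadjusted p under 0.05 there were 4 of the 29 in symmetric R2K, 1 in symmetric K36Q, 1 in asymmetric R2K and 0 in asymmetric K36Q, and DESeq2 called none of the 29 in these 4 comparisons. Between symmetric mutants of batch 10, R2K against K36Q called 3.73% of all genes (1.83% higher and 1.91% lower) and none of the 29 (12 at an unadjusted p under 0.05; DESeq2 called 2, SAH1 and MET14). R2K against K37Q (0.1% of all genes) and K36Q against K37Q (0.0803%) called none of the 29, of which 7 and 5 had an unadjusted p under 0.05 and DESeq2 called none.

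The levels of many of these genes moved with a property of the library, the slope of log2 CPM on log2 feature length over all genes. Across the 33 libraries of a batch, Pearson's r between a gene's log2 level and this slope was -0.86 for CYS3 in both batches, -0.83 and -0.75 for MET13, -0.71 and -0.74 for SAH1, and -0.49 and -0.52 for MET22 (batch 10, then batch 11), against a median absolute r of 0.54 and 0.50 over all genes. It was 0.14 and 0.36 for MET17, 0.31 and 0.10 for STR3 and -0.02 and 0.23 for MET6. The slope averaged -0.216 ± 0.203 in K37Q H3X and -0.153 ± 0.0436 in K37Q H3Y, against 0.0671 ± 0.0892 in the batch 10 controls. It averaged 0.144 ± 0.0228 in symmetric K14R, 0.0993 ± 0.00976 in symmetric K56R and -0.205 ± 0.219 in symmetric K18R, against -0.0874 ± 0.0924 in the batch 11 controls (SD, n = 3 per mutant strain and 6 per control). The slope is computed from the same counts, and its mean differs between these strains and their controls. Where a call is lost with this covariate, a property of the libraries and an effect of the mutation cannot be told apart.

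With the slope as a covariate, asymmetric K37Q had no called gene among the 29 or among all genes, symmetric K14R had 3 (SAH1 -0.46, CYS4 -0.44, STR3 0.97) and asymmetric K14R 1 (STR3 0.64), while the MET17 call of symmetric K56R held under all 14 of its alternatives, this one included. The symmetric K56R calls of CYS3, SAM1, MET12, MET6 and MET30 were lost. The summed level of the 29 genes was 4387 ± 31.8 CPM in symmetric K14R, 5000 ± 22.0 in symmetric K56R and 5914 ± 824 in symmetric K18R, against 5503 ± 277 CPM in the batch 11 controls. SAH1 and then CYS3 are the largest parts of these sums. In symmetric K14R SAH1 had 1259 to 1337 CPM, against 1706 to 2073 CPM in the controls. CYS3 had 514 to 549 CPM there, against 589 to 787 CPM. The part that the slope has in these sums was not tested. In bulk cultures, fewer cells with a transcript and less transcript per cell cannot be told apart.

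**Figure D4:**
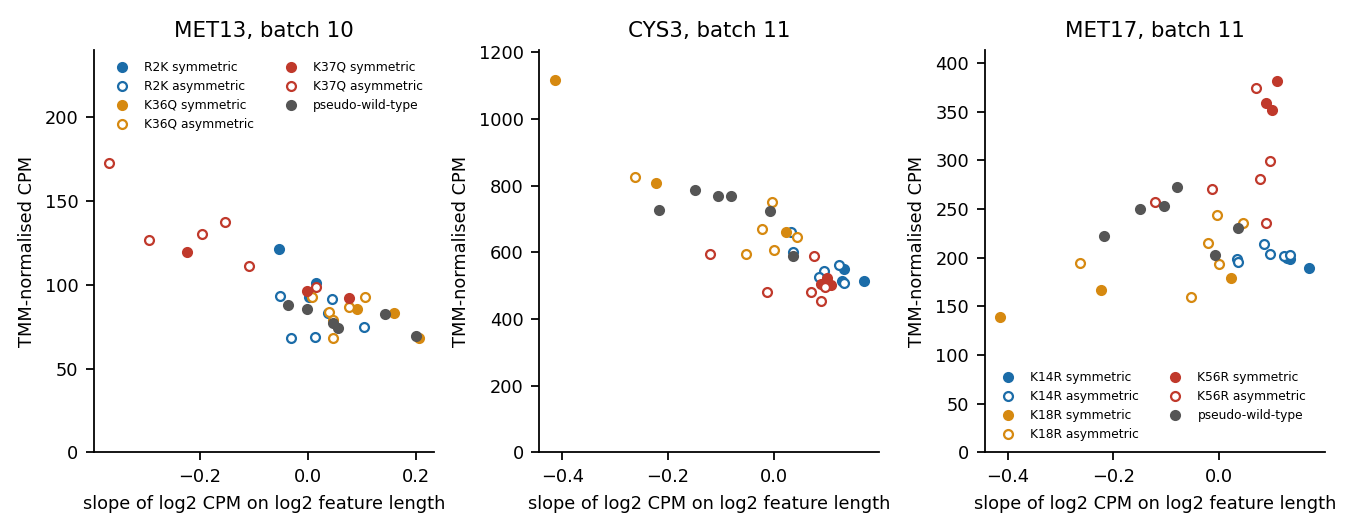
3′-end level in CPM per library against the library's slope of log2 CPM on log2 feature length, for MET13 in batch 10 and for CYS3 and MET17 in batch 11, 33 libraries each. MET13 and CYS3 decline as the slope rises (r = -0.83 and -0.86), whereas MET17 follows it less (r = 0.36) and its symmetric K56R libraries stand at 352 to 381 CPM, beside 1 asymmetric K56R library at 374 CPM and with all others lower.

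In full-length data, SUL1 in symmetric K36Q had the largest fold change of all 30 genes in the 31 comparisons. SUL1, which encodes a high-affinity sulfate permease (chromosome II, 789235 to 791814, plus strand) and has no 3′-end feature, had 29.4 and 35.3 CPM in the 2 symmetric K36Q libraries (166 and 614 counts), against 7.31, 5.11, 3.15, 5.42 and 1.94 CPM in the 5 pseudo-wild-type libraries (14, 22, 3, 64 and 1 counts). Both symmetric libraries were far above every control library. Replicate 1 was of batch 3, which holds a control library, and replicate 2 of batch 7, which holds none. The means were 32.4 ± 4.20 (SD, n = 2) and 4.18 ± 1.95 CPM (SD, n = 3), and the fitted log2 fold change was 2.59 (SE 0.304, 6.02-fold, edgeR adjusted p = 8.16e-07), a call that held in all 13 alternatives. The 20 nearest tested genes had a median log2 fold change of 0.28. Of all genes 7.37% were called in this comparison (4.39% higher and 2.98% lower).

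Symmetric K36Q called 6 of the 30 genes, 5 higher and 1 lower. SUL2 had 49.6 and 61.8 CPM, against 30.6 to 34.6 CPM in the 5 control libraries, and MUP1 had 418 and 429 CPM, against 227 to 292 CPM. Neither overlapped with the controls, and their log2 fold changes were 0.77 (edgeR adjusted p = 0.0330) and 0.62 (0.0444), so that both sulfate permease genes and the methionine permease gene were higher. MET2 (31.0 and 46.9 CPM, against 11.5 to 32.95 CPM, log2 fold change 1.07, adjusted p = 0.0126) and MET22 (65.0 and 140 CPM, against 39.2 to 77.5 CPM, 0.83, 0.0378) rose, and the cystathionine gamma-synthase gene STR2 fell (54.7 and 25.7 CPM, against 56.2 to 103 CPM, -1.20, 0.0276). Beside SUL1, these calls were lost under some alternatives: 1 gene was called with 1 of the 3 near-identical control libraries kept or without symmetric replicate 2, 2 without symmetric replicate 1 or control replicate 1 or 3, and 3 without control replicate 4. MET2 held in 10 of 13 alternatives, STR2 in 6, SUL2 and MET22 in 5 and MUP1 in 1. In the 3′-end data of symmetric K36Q the log2 fold changes were 0.37 for SUL2, 0.09 for MUP1, 0.24 for MET2, 0.19 for MET22 and 0.02 for STR2, and none was called.

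SUL1 was also called in symmetric K37Q, with 25.3 and 18.4 CPM in the 2 libraries and a log2 fold change of 1.68 (SE 0.353, 3.20-fold, edgeR adjusted p = 0.0325), beside 0.0941% of all genes. The call held in 7 of 13 alternatives and was lost without either symmetric library and without control replicate 3 or 4. The symmetric K37Q libraries were of batches 6 and 7, which hold no control library. In the asymmetric strains SUL1 had 11.3 and 10.9 CPM in K36Q H3X, 4.50 and 11.9 in K36Q H3Y, 12.9 and 8.59 in K37Q H3X and 3.79 and 7.62 in K37Q H3Y, and was not called in either asymmetric mutant. Whether the symmetric and asymmetric strains differ was not tested in full-length data. Within sequencing batch 3, SUL1 had 29.4 CPM in symmetric K36Q, 11.3 in K36Q H3X and 4.50 in K36Q H3Y, against 5.11 CPM in pseudo-wild-type. Over all 98 libraries its median was 7.33 CPM, and outside symmetric K36Q and K37Q the highest of 94 libraries was K4A H3X of batch 9, at 27.7 CPM, followed by K4Q H3X of the same batch at 15.3 CPM.

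**Figure D5:**
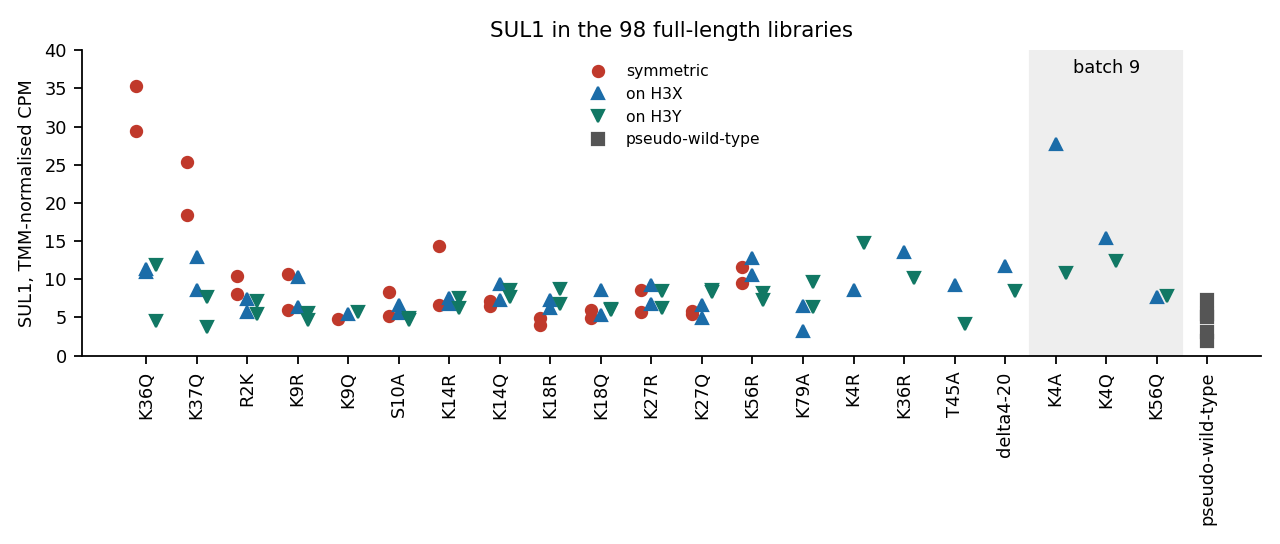
SUL1 level in CPM in the 98 full-length libraries by mutant, 1 point per library, with symmetric, H3X and H3Y strains told apart and the pseudo-wild-type libraries beside them. The symmetric K36Q libraries (29.4 and 35.3 CPM) and symmetric K37Q libraries (25.3 and 18.4 CPM) stand high, as does 1 K4A library of batch 9 (shaded), which has no control library linked to it.

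Symmetric K14R in full-length data called 4 genes, all higher, beside 20.2% of all genes (14.6% higher and 5.69% lower). CYS3 had 658 and 2953 CPM, against 482 to 1173 CPM in the 5 control libraries (log2 fold change 1.33, edgeR adjusted p = 0.0114). MET8, a sirohaem synthesis gene, had 20.6 and 39.9 CPM, against 9.30 to 14.2 CPM (1.27, adjusted p = 0.00553). SAM1 had 433 and 1068 CPM, against 318 to 556 CPM (0.87, 0.0364), and MET2 had 26.3 and 36.03 CPM, against 11.5 to 32.95 CPM (0.80, 0.0437). MET8 was above every control library in both replicates, and the other 3 genes in replicate 2 alone. The 2 libraries differed by more than the fold change itself for CYS3 and SAM1. Replicate 2 was of batch 7, which holds no control library. This replicate had a length slope of -0.55 and a summed level of the 30 genes of 12052 CPM. Without it CYS3 had a log2 fold change of -0.05 and none of the 30 was called. The number called was 18 without replicate 1, 2 without control replicate 1, 3 or 4, and 7 without control replicate 5. In the 3′-end data of symmetric K14R, CYS3 fell (-0.47), and SAM1 had a log2 fold change of -0.27 (edgeR adjusted p = 0.0518).

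The other full-length comparisons called none of the 30 genes. Symmetric K56R called 1.8% of all genes and none of the 30, of which 7 had an unadjusted p under 0.05 and DESeq2 called 1 (MET3, log2 fold change 0.67, edgeR adjusted p = 0.0542). A single gene was called without symmetric replicate 1 or control replicate 5. MET17 there had a log2 fold change of -0.06 (SE 0.34, edgeR adjusted p = 0.974), beside 0.61 in the 3′-end data, and in symmetric K18R it had -0.67 (SE 0.343, adjusted p = 1), beside -0.53. For K56R the full-length standard error is close to 3 times that of the 3′-end fit (0.34 against 0.117), and the difference between the assays was not tested. MET6, called higher in 3′-end symmetric K56R, had a log2 fold change of at most 0.016 in each of the 31 full-length comparisons. Symmetric R2K, K9R, K9Q, S10A, K14Q, K18R, K18Q, K27R and K27Q and the asymmetric strains of all 18 mutants with linked controls gave no call among the 30 by edgeR or by DESeq2, beside 0 to 0.439% of all genes, with 0 to 7 of them at an unadjusted p under 0.05 in each symmetric and 0 to 6 in each asymmetric comparison. Symmetric K9Q and the H3X and H3Y strains of K9Q, K4R, K36R, T45A and delta4-20 had 1 library each, which the fit takes to vary like the other strains. The largest log2 fold change without a call was that of SUL1 in asymmetric K36R, at 1.37 (edgeR adjusted p = 0.173). Without replicate 1 of symmetric S10A, 6 of the 30 were called there.

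Of 23 further genes of sulfur metabolism, 22 were tested in the 3′-end data, covering the methionine salvage cycle, glutathione, aspartate-derived homoserine and S-adenosylmethionine transport. In asymmetric K37Q 6 rose and 1 fell, among them the salvage genes MDE1 (log2 fold change 0.82), MRI1 (0.60) and MEU1 (0.44), and the S-adenosylmethionine-homocysteine methyltransferase gene SAM4 (0.51), while the glutathione synthetase gene GSH2 fell (-0.46). In symmetric K14R 4 fell and none rose, namely GSH1, the first gene of glutathione synthesis (-0.76), HOM2 (-0.42), MRI1 (-0.36) and the glutathione transporter gene OPT1 (-0.33). In symmetric K56R the sulfonate dioxygenase gene JLP1 rose (0.94), and MRI1 (-0.69), the S-adenosylmethionine permease gene SAM3 (-0.63), SAM4 (-0.59) and IRC7 (-0.59) fell. In full-length symmetric K36Q 4 of the 23 rose, namely the methionine permease gene MUP3 (1.26), JLP1 (1.20), the S-methylmethionine permease gene MMP1 (0.98) and the salvage gene ADI1 (0.76), and SEO1 fell (-1.30). In full-length symmetric K14R 7 rose, among them the salvage genes UTR4 (1.47) and ADI1 (0.93), and SEO1 fell (-1.34). Other comparisons also called some of these genes, among them asymmetric K56R (1 higher and 5 lower), K14R against K18R (0 and 7), K14R against K56R (1 and 4) and K18R against K56R (6 and 1). The shares of all genes called in these comparisons, given above, apply to these counts as well. In 3′-end asymmetric K37Q, symmetric K14R and symmetric K56R the share called was not above that of all genes and is no result about these genes.

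With the length slope as a covariate, these counts were 0 higher and 0 lower in asymmetric K37Q, 1 and 2 in symmetric K14R, 4 and 3 in symmetric K56R, 0 and 1 in full-length symmetric K36Q and 0 and 0 in full-length symmetric K14R. With 1 of the 3 near-identical controls kept, full-length symmetric K36Q had 1 higher and 1 lower and full-length symmetric K14R 2 and 1. Full-length symmetric K36Q had 2 and 1 without the batch term and 0 and 1 without either symmetric replicate. Full-length symmetric K14R had none without replicate 2, 12 and 3 without replicate 1, and 4 and 1 without control replicate 1 or 3. In the 3′-end data, symmetric K14R had 2 lower without any 1 of its replicates and 6 lower under RLE or DESeq2. Symmetric K56R had none higher without replicate 5.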

How the data were processed

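Expression was measured in 164 libraries of poly(A)+ RNA. The deposited values are raw counts per feature, 1 file per library, which per the file headers the authors made with featureCounts v1.4.6-p2 at a minimum mapping quality of 30. Full-length pairs were counted on the reverse strand with duplicates ignored, and 3′-end reads on the forward strand with duplicates kept. The submitters' processing notes name TopHat2 2.0.12 and the build sacCer3. Counts were analysed with edgeR 4.0.16 in R 4.3.3 (TMM, filterByExpr, quasi-likelihood test), 1 fit per 3′-end batch (4984 and 4961 genes) and 1 full-length fit with sequencing batch as a term (6376 genes). DESeq2 1.42.0 was an alternative. Beyond other scalings and filters and leaving out single libraries, the slope of log2 CPM on log2 length was tried as a covariate. Its full-length form, symmetric K56R replicates 3 and 4 summed, and fits of the mutant strains only were chosen after seeing the data. Scripts were tested on simulated data. Batch 9 (K4Q, K56Q, K4A) shares no batch with a control or a linked strain and was left out of tests. Sequence came from the R64 reference. The genes and lists were chosen with earlier results of these data known. In 3′-end comparisons the called genes of largest change, up to 6 in each direction, were named.

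Same-numbered libraries deviated together, with all 3 correlations over 0.1, in K56R H3X and H3Y (0.256, 0.177, 0.495), symmetric K36Q and K36Q H3X (0.348, 0.108, 0.197) and symmetric K36Q and K37Q (0.267, 0.305, 0.409). The labels name no pairing, and a replicate block added no call among the genes in these pairs.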

Additional observations from a re-analysis of the deposited data

Results flagged for a closer look

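In 6 of 58 groups of 6 pseudo-wild-type 3′-end libraries (29 genes in each of 2 batches), 1 library stood far from the other 5 by Dixon's criterion, which chance meets in about 1 in 20 groups. In batch 10 these were MUP1 at 413 CPM in replicate 8 (others 324 to 356) and CBF1 at 55.9 CPM in replicate 13 (others 36.9 to 41.8). In batch 11 they were MET5 at 11.8 CPM in replicate 19 (others 6.24 to 7.80), MET6 at 242 CPM in replicate 17 (others 178 to 194), CYS3 at 589 CPM in replicate 16 (others 725 to 787) and MET32 at 18.5 CPM in replicate 17 (others 5.63 to 10.4).

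In 4 cases every library of 1 assay lay on one side of its controls' mean log2 level, with near-identical controls counted as 1, and every library of the other assay on the opposite side. As a difference in log2 fold change, full-length minus 3′-end, these were SAM1 (1.14) and MET2 (0.90) in symmetric K14R, MET22 (1.22) in asymmetric K14R and MET30 (-0.068) in symmetric K56R. For MET30 the fitted log2 fold changes, with sequencing batch as a term in full-length data, were above 0 in both assays (0.24 and 0.31). None of these differences was tested, and the assays differ in library type, feature set and sequencing batch.

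The 6 libraries of batch 9, with K4Q, K56Q and K4A, share no batch with a control and entered no comparison. For 6 of the 30 genes (20%) all of them were above all 5 pseudo-wild-type full-length libraries, as was the case for 513 of all 6376 genes (8.05%). Their batch 9 medians were 11.6 CPM for SUL1, 41.7 for SUL2, 295 for MET5, 391 for MET10, 767 for CYS4 and 376 for MUP1. In the other direction, 1 of the 30 genes (3.33%), MET4, was below all 5 control libraries in all 6, beside 330 of all 6376 genes (5.18%). MET4 had 86.6 to 141 CPM in batch 9, against 149 to 184 CPM in the controls. Batch and mutation cannot be told apart here.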

How the results depend on the processing

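Of 71 called results for single genes in 3′-end data, 68 kept direction and call under RLE scaling, 67 under DESeq2, 68 without the low-count filter and 471 of 618 with 1 library left out, but 24 with the length slope as covariate (44 no longer called, 3 reversed). The reversed ones were CYS3 in asymmetric K37Q (-0.059) and MET13 (0.043) and MET2 (0.37) in K14R against K18R. Of 11 in full-length data, 11 held under DESeq2, 9 under RLE, 6 without the batch term, 2 with the slope and 1 with 1 of the 3 near-identical controls, and full-length CYS3 in symmetric K14R reversed without replicate 2 (from -0.050 to 2.04 over the libraries left out). The cause was not tested.

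As numbers of called genes, the length slope gave 0 in asymmetric K37Q, 3 in symmetric and 1 in asymmetric K14R, 0 in symmetric K18R, 3 in symmetric against asymmetric K56R, 2 in K14R against K18R, and 0 and 1 in full-length symmetric K14R and K36Q. DESeq2 gave 2 in R2K against K36Q, 4 in symmetric K18R, 4 in symmetric against asymmetric K18R, 2 in symmetric against asymmetric K56R, and 9 and 1 in full-length symmetric K14R and K56R. Summing the close K56R libraries gave 5 in symmetric K56R, 0 in symmetric against asymmetric K56R and 1 in K14R against K56R. In full-length data, keeping 1 of 3 near-identical controls gave 0 in symmetric K14R, 1 in K36Q and 0 in K37Q and RLE gave 0 in K37Q.

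Leaving out 1 library gave 3 to 10 called genes in symmetric K14R, 4 to 7 in asymmetric K14R, 0 to 8 in symmetric K18R, 0 to 7 in symmetric against asymmetric K18R, 4 to 8 in symmetric K56R, 3 to 6 in asymmetric K56R, 0 to 1 in symmetric against asymmetric K56R, 11 to 15 in asymmetric K37Q, 0 to 1 in symmetric K37Q, in symmetric against asymmetric K36Q and K37Q and in K36Q against K37Q, 0 to 4 in R2K against K36Q, 7 to 11 in K14R against K18R, 1 to 3 in K14R against K56R and 9 to 11 in K18R against K56R. Full-length ranges were 0 to 18 in K14R, 1 to 5 in K36Q, 0 to 1 in K37Q and K56R and 0 to 6 in S10A. In full-length asymmetric comparisons this was not run. A replicate block gave 9 in K14R against K18R, 6 in K14R against K56R, 11 in K18R against K56R, 1 in symmetric against asymmetric K56R and 0 in the other 3′-end comparisons where it could be fitted. In full-length data, a fit with neither replicate block nor batch term gave 6 in symmetric K14R, 2 in K36Q, 1 in K37Q and 0 in the others. Low-level genes and the 1 or 2 libraries per full-length mutant strain limit what could be detected.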
